A study of Mus musculus with 6 samples.

Results

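The protein genes of the mitochondrial ribosome were taken from the table by symbol, as every gene whose symbol starts with Mrpl or Mrps followed by a number. This rule used no measured value and found 79 of 23557 genes, of which 50 are named for the large subunit (Mrpl) and 29 for the small subunit (Mrps). One of them, Mrpl23-ps1, is annotated as a processed pseudogene and held an estimated count of at most 0.024 in any tumor. The other 78 were protein-coding, passed the filter on low values and were tested.

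The tumors came from CT26 cells, a mouse colon carcinoma line from the BALB/c strain, of which 500000 were injected under the skin of 7-week-old female BALB/c mice. From day 6, mice received H89 at 10 mg/kg in NaCl, or NaCl alone, in the peritoneal cavity 2 times a week. H89 inhibits protein kinase A and some other kinases. Tumors were taken at day 14, and bulk RNA of 3 NaCl and 3 H89-treated tumors was sequenced. The comparison asks how these genes differ in level between tumors of treated and control mice. Both groups carry the same transplanted line, so the groups differ by label only in the agent, and host cells of the tumor are part of every library. In such bulk samples, fewer cells of a type and less RNA per cell cannot be told apart.

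The mitochondrial ribosome, or mitoribosome, translates the few proteins encoded by mitochondrial DNA, all of them subunits of the respiratory chain and the ATP synthase. Its RNAs are encoded in the mitochondrion, but all of its proteins are encoded in the nucleus, made in the cytosol and imported. Some descend from proteins of the bacterial ribosome, and others were added during the evolution of mitochondria.

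Depth was similar among libraries, at 27067349 to 31958793 estimated counts, so that 1 count was worth 0.0313 to 0.0369 counts per 1000000 (CPM). Each tested member held between 84.3 and 3309 counts in each tumor, and the levels below are CPM scaled by TMM, a method that sets most genes equal between libraries. Among 12 lists of cell type and proliferation markers, the summed level separated the groups for 1 list, that of fibroblasts, at 2171 to 2437 CPM in NaCl and 2449 to 3136 CPM in H89-treated tumors, with 5 of 5 markers present. T cell markers (4 of 5 in the table, none at 0 in all tumors) summed to 5.16 to 12.4 CPM in NaCl and 10.3 to 28.5 CPM in H89-treated tumors, and 6 proliferation genes overlapped between groups, at 1182 to 1319 and 1279 to 1406 CPM. H89-treated tumor 1 stood apart in skeletal muscle markers, which summed to 18.4 CPM there and to 0.950 to 2.34 CPM elsewhere. H89-treated tumor 3 stood apart in erythroid markers (2 of 3 in the table), at 97.3 CPM beside 9.63 to 44.3 CPM elsewhere, and in 4 neutrophil markers, at 34.4 CPM beside 16.0 to 21.9 CPM. The 4 keratin and Epcam genes listed for the CT26 cells were low, at sums of 13.5 to 24.998 CPM in NaCl and 8.66 to 14.2 CPM in H89-treated tumors. Whether they follow the share of CT26 cells was not tested. In edgeR's quasi-likelihood test, 3 of 4 tested T cell markers and 2 of 5 fibroblast markers were higher at an unadjusted p under 0.05. None of these was lower at that p. Each other list held at most 1 marker at that p, lower in the list for the CT26 cells and higher elsewhere. Over all genes, 13.1% were higher and 11.9% lower. The part of these lists in the results was not tested.

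Promoter windows of RefSeq (GRCm38.p6), each from 250 bases before to 50 bases after a transcription start, were at hand for 69 of the 78 tested members, 75 windows in all. The letters CCGGAAG, the core of sites for ETS factors such as GABP, stood on either strand in 34.7% of the member windows and in 16.6% of the 13247 windows of all genes tested. The letters AAGATGGC, a site of YY1 that often lies just after the start, stood in 16.0% of the member windows and 4.17% of all. The letters GCATGCGC, the core of a site for NRF1, stood in 10.7% against 4.90%. The other motifs searched were the cyclic AMP element TGACGTCA (2.67% against 2.89%), the GC box GGGCGG (52.0% against 60.2%), the letters CCAAT (40.0% against 37.6%), the E-box CACGTG (9.33% against 9.56%) and TATAAA (6.67% against 7.46%). Both strands were searched for each motif, and matches of different motifs may overlap. The 4 stretches shown were chosen, because they belong to genes with low p-values below and show the arrangement of these letters. Each runs from 64 bases before to 23 bases after its start, 5′ to 3′ on the strand of the gene, and capitals mark CCGGAAG, AAGATGGC, GCATGCGC, TGACGTCA or their reverse complements.
Mrps27 (chr13:99344722-99344808, + strand): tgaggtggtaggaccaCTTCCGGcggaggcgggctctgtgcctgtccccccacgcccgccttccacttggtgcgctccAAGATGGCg
Mrpl34 (chr8:71464862-71464948, + strand): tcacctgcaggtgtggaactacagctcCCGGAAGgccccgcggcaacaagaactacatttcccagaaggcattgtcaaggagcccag
Mrpl52 (chr14:54426845-54426931, + strand): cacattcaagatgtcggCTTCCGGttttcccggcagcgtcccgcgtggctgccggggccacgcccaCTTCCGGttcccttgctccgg
Mrpl30 (chr1:37890413-37890499, + strand): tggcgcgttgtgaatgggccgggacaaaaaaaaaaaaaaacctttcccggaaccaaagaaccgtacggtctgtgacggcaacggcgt
In Mrps27 the ETS letters begin at position -48 and the YY1 letters at position 15, counted from the start as 1. Mrpl52 holds the ETS letters 2 times, and the Mrpl30 stretch, whose part before the start lies between the starts of Mrpl30 and its neighbour Mitd1, holds none of these motifs. A match says only that these letters are present.

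Most mitoribosomal genes were slightly lower in H89-treated tumors, and none changed past the threshold. Of 78 tested members, 69 had a log2 fold change (H89 against NaCl) below 0 and 9 above 0, where 49.4% of all 13118 genes tested were below 0. The median log2 fold change was -0.16, with the middle of the members between -0.23 and -0.08, a lowest value of -0.45 and a highest of 0.17, beside a median of 0.00 over all genes tested. With edgeR's quasi-likelihood test and Benjamini-Hochberg adjustment, 0 of 78 members passed 0.05, and 1.59% of all genes did. At an unadjusted p under 0.05, 15 members (19.2%) were lower, against 11.9% of all genes, and 0 were higher, against 13.1%. All 3 H89-treated tumors lay below all 3 NaCl tumors for 19 members (24.4%), where 15.5% of all genes did so, and above them for 2 members, where 15.2% did so. DESeq2 called 3 members with Benjamini-Hochberg adjustment, Mrps27, Mrps16 and Mrpl34, all lower, where it called 10.6% of all genes, and a limma fit corrected for GC content and length called 1, Mrps16, where it called 5.42% of all genes. Scaled to total counts without TMM, 59 members were lower and 19 higher, with a median of -0.09 beside 0.08 over all genes, and 9 members were lower at an unadjusted p under 0.05, beside 6.9% of all genes.

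**Figure D1:**
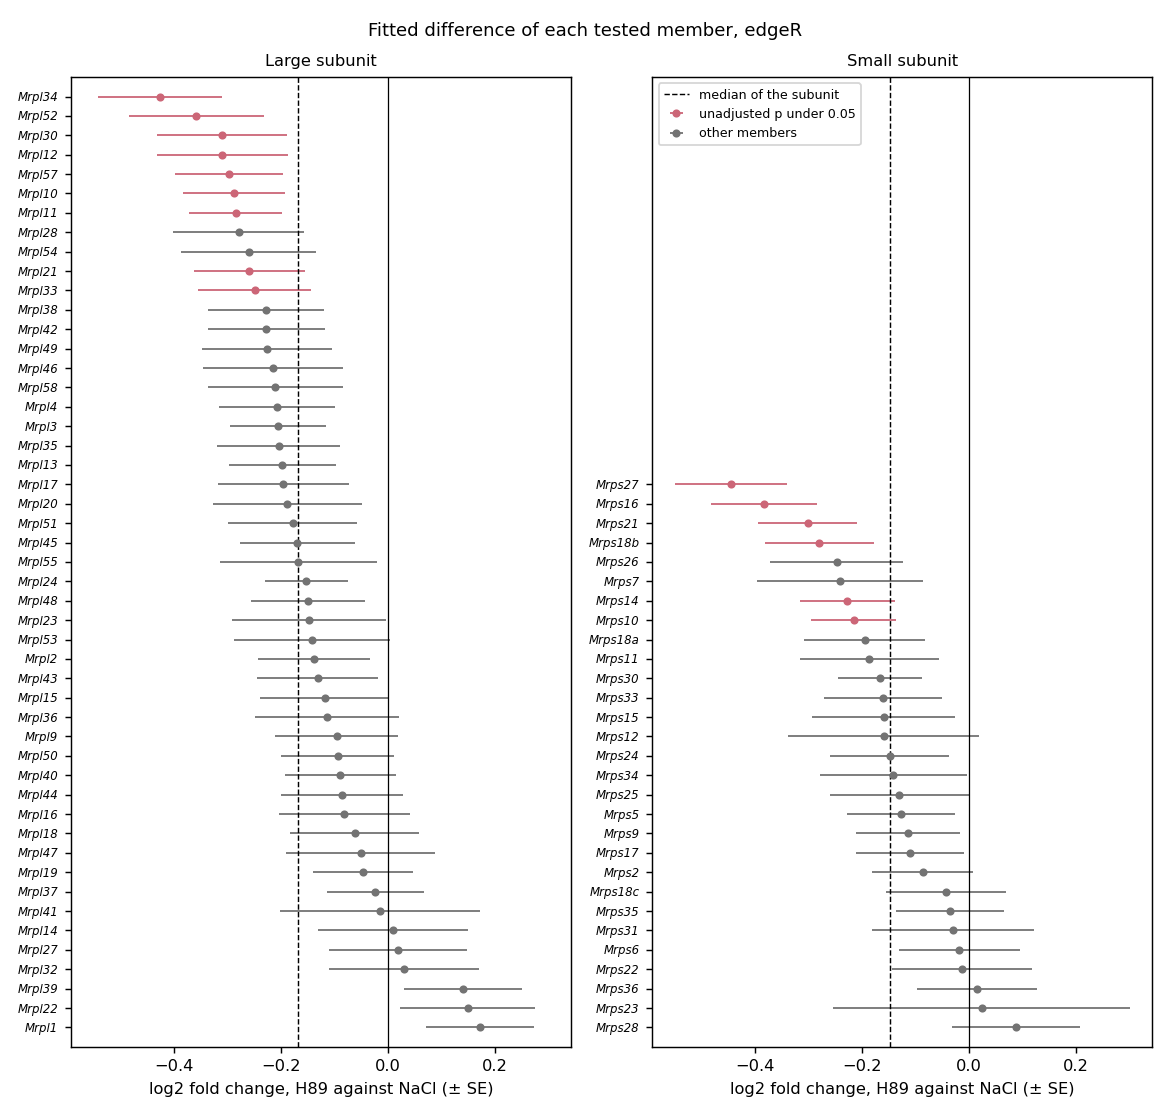
Log2 fold change of H89 against NaCl (x axis) with its standard error for each of the 78 tested members, ordered within the large (left) and small (right) subunit. Members with an unadjusted p under 0.05 in edgeR are in red, the dashed line is the median of each subunit (-0.17 and -0.15), and 69 of the 78 points lie below 0.

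The 3 H89-treated tumors did not show this equally. Against the mean of the NaCl tumors, the median member stood at -0.05, 0.04 and 0.01 on the log2 scale in NaCl tumors 1 to 3 and at 0.00, -0.17 and -0.31 in H89-treated tumors 1 to 3. In H89-treated tumor 1, 37 of 78 members were below the NaCl mean, in tumor 2, 66, and in tumor 3, 76. H89-treated tumor 1 therefore lay within the NaCl range, while tumor 3 was the lowest of all 6 tumors for 61 members and tumor 1 the highest of the H89-treated tumors for 69. The summed level of the members was 3293, 3468 and 3403 CPM in NaCl tumors and 3374, 2963 and 2673 CPM in H89-treated tumors, 3388 ± 88.5 and 3003 ± 352 CPM (mean ± SD, n = 3 each). The median over all genes tested was between -0.003 and 0.014 on the same log2 scale in every tumor. TMM scaling largely sets this in advance, so it is no separate result. The TMM factor was lowest in NaCl tumor 1 (0.956) and highest in H89-treated tumor 3 (1.06). H89-treated tumor 1 was also the tumor with the muscle markers, and tumor 3 the one with the highest erythroid and neutrophil markers, and the part of these cells in the values was not tested.

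**Figure D2:**
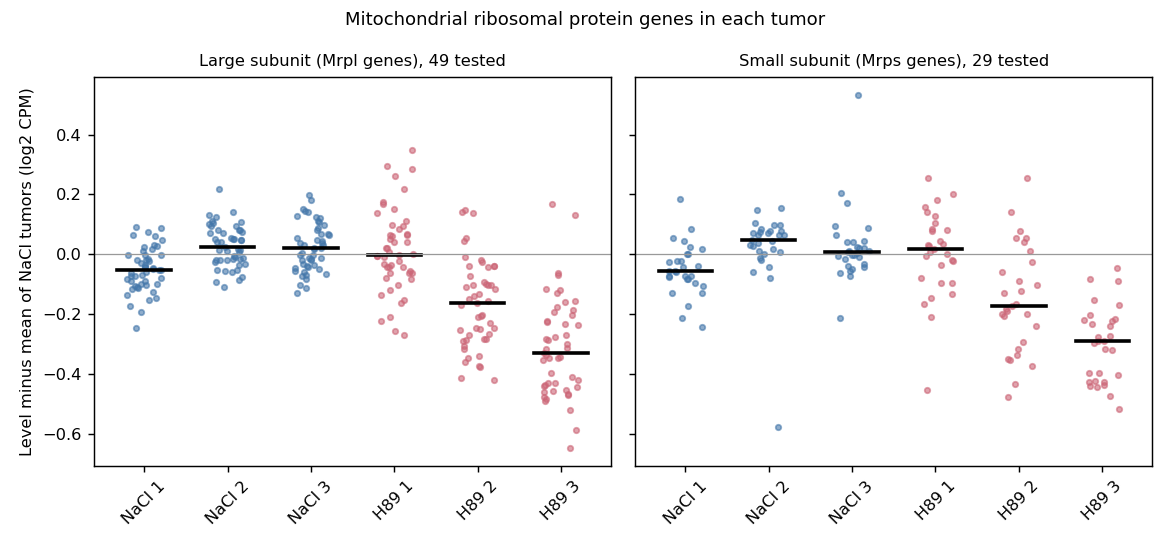
Level of each tested member in each tumor as the difference from the mean of the 3 NaCl tumors in log2 CPM (y axis), for the large (49) and small (29) subunit, with a black bar at the median of each tumor. In H89-treated tumor 1 the points scatter around 0, and in tumor 3 the medians are -0.32 and -0.29.

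The counts followed single tumors. Without H89-treated tumor 1, 37 members were lower at an unadjusted p under 0.05 (22 large, 15 small), beside 13.9% of all genes, and the median was -0.24. Without H89-treated tumor 2, 5 were lower (2 large, 3 small), beside 7.89%, and without H89-treated tumor 3, 6 were lower (3 large, 3 small), beside 9.41%, with 58 members below 0 and a median of -0.08. Without NaCl tumor 2, 6 were lower (3 large, 3 small), beside 8.78%. Leaving out NaCl tumor 1 gave 11, beside 9.57%, and leaving out NaCl tumor 3 gave 10, beside 9.62%. In each of these fits 0 members were higher at that p and 0 passed the adjusted threshold in edgeR.

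The subunits were close to each other. Of 49 tested large-subunit genes, 43 were lower and 6 higher, 9 were lower at an unadjusted p under 0.05, 12 lay wholly below the NaCl tumors, and the median log2 fold change was -0.17. Of 29 small-subunit genes, 26 were lower and 3 higher, 6 were lower at that p, 7 lay wholly below, and the median was -0.15. At that p these are 18.4% of the large and 20.7% of the small subunit, beside 11.9% of all genes. Wholly below were 24.5% and 24.1%, beside 15.5% of all genes. Some names do not match the place of the protein in the structure: Mrps18a and Mrps30 lie in the large subunit, and Mrps36 belongs to the alpha-ketoglutarate dehydrogenase complex. Sorted by structure, the medians were -0.17 (51 genes) and -0.15 (26 genes). By origin, 41 of 47 proteins with a bacterial homologue were lower, 12 of the 47 (25.5%) at an unadjusted p under 0.05 (median -0.16). Of 30 mitochondria-specific proteins, 28 were lower (median -0.16). At that p 3 of the 30 (10.0%) were lower, beside 11.9% of all genes. Without H89-treated tumor 1, 23 of the 47 and 14 of the 30 were lower at that p, beside 13.9% of all genes. Without NaCl tumor 2 these counts were 4 and 2, beside 8.78%. With the correction for GC content and length they were 16 and 8, beside 19.1%. The difference by origin was not tested.

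In the small subunit, the smallest p belonged to Mrps27, a mitochondria-specific protein with pentatricopeptide repeats that binds RNA. Its level was 27.2, 33.9 and 31.2 CPM in NaCl tumors and 22.4, 22.6 and 22.8 CPM in H89-treated tumors. The treated tumors lay close together and below every NaCl tumor. Its log2 fold change was -0.45 ± 0.11 (SE, edgeR), with a Benjamini-Hochberg adjusted p of 0.0723, and it stayed between -0.53 and -0.37 when single tumors were left out. Mrps27 is at chr13:99344786-99415562 on the + strand (GENCODE M21, GRCm38), and its exons overlap the antisense gene 6430562O15Rik. Strand-specific counting is not stated in the sources used here, so reads of overlapping genes may be shared. The estimated counts of Mrps27 were whole to within 0.01 in each tumor and so show no split reads. Among the tested members, 44 held fractional counts in some tumor.

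Mrps16, a bacterial-type protein needed for assembly of the small subunit, stood at 49.5, 45.8 and 47.8 CPM in NaCl tumors and at 41.2, 34.3 and 34.3 CPM in H89-treated tumors. Each treated tumor was below the lowest NaCl tumor. The log2 fold change of Mrps16 was -0.38 ± 0.10 (SE), with an adjusted p of 0.0827 in edgeR's test. Mrps21, a small bacterial-type protein and the most abundant small-subunit transcript per kb of transcript (127 CPM per kb), stood at 62.6, 61.7 and 63.5 CPM in NaCl and 56.6, 49.6 and 46.2 CPM in H89-treated tumors. The NaCl tumors were nearly equal, and the H89-treated tumors all lay below them. For Mrps21 the log2 fold change was -0.30 ± 0.09 (SE), adjusted p = 0.108 in edgeR.

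The genes Mrps18a, Mrps18b and Mrps18c encode 3 relatives of the bacterial S18 protein, which take different places in the ribosome. Mrps18b stood at 84.3, 86.9 and 81.8 CPM in NaCl tumors and at 79.8, 65.0 and 63.8 CPM in H89-treated tumors, without overlap (log2 fold change -0.28 ± 0.10, SE). Mrps18a stood at 46.9, 49.3 and 53.0 CPM against 49.4, 43.2 and 37.8 CPM, with H89-treated tumor 1 inside the NaCl range (-0.20 ± 0.11 SE). Mrps18c stood at 25.3, 26.8 and 27.8 CPM against 29.1, 25.6 and 22.9 CPM, so that H89-treated tumor 1 was the highest and tumor 3 the lowest of all 6 (-0.04 ± 0.11 SE). Their adjusted p-values in edgeR were 0.320 for Mrps18a, 0.150 for Mrps18b and 0.839 for Mrps18c, and the differences among the 3 genes were not tested.

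Around the decoding centre, Mrps12, the homologue of bacterial S12, stood at 41.7, 37.4 and 31.6 CPM in NaCl tumors and at 42.2, 29.9 and 27.1 CPM in H89-treated tumors. The group of Mrps12 with Mrps5 and Mrps24 had 3 of 3 genes lower, none at an unadjusted p under 0.05, and a median of -0.15. The exons of Mrps24 overlap those of Urgcp on the same strand. Mrps28 and Mrps23 went furthest against the small-subunit median, at log2 fold changes of 0.09 ± 0.12 and 0.02 ± 0.28 (SE). Mrps23, at 3.72 CPM per kb the lowest of the small subunit, varied among NaCl tumors from 3.14 to 6.79 CPM, a wider spread than the 4.43 to 5.60 CPM of H89-treated tumors. Mrps28 had 16.3 to 17.1 CPM in NaCl and 15.8 to 20.1 CPM in H89-treated tumors, so both genes overlapped between groups. Mrps30 stood at 48.2, 51.6 and 50.9 CPM against 46.9, 44.2 and 43.1 CPM, without overlap (-0.17 ± 0.08 SE, adjusted p = 0.232 in edgeR). Mrps36 stood at 23.2, 25.8 and 24.3 CPM against 27.2, 25.1 and 21.7 CPM (0.01 ± 0.11 SE).

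In the large subunit, Mrpl34, a short basic protein of bacterial type, had the smallest p. It stood at 32.1, 29.5 and 31.7 CPM in NaCl tumors and at 25.7, 24.0 and 19.8 CPM in H89-treated tumors. Every H89-treated tumor was below every NaCl tumor, and tumor 3 was the lowest. The log2 fold change was -0.43 ± 0.12 (SE), adjusted p = 0.0888 in edgeR. Mrpl57, a mitochondria-specific protein, stood at 32.6, 33.2 and 32.2 CPM against 29.4, 26.7 and 23.7 CPM, also without overlap (-0.30 ± 0.10 SE, adjusted p = 0.129 in edgeR). Mrpl52, a mitochondria-specific protein and the most abundant member per kb (173 CPM per kb), stood at 89.9, 84.3 and 82.0 CPM against 79.4, 63.8 and 56.7 CPM (-0.36 ± 0.13 SE, adjusted p = 0.139 in edgeR).

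The stalk of the large subunit recruits translation factors. The 3 genes listed for it here were all below the NaCl mean in each H89-treated tumor, tumor 1 included. The base of the stalk is formed by Mrpl11 and Mrpl10, and its flexible arms by copies of Mrpl12. Mrpl11 stood at 27.8, 29.4 and 30.1 CPM in NaCl tumors and at 24.9, 23.5 and 23.3 CPM in H89-treated tumors. Mrpl10 stood at 64.2, 66.6 and 62.0 CPM against 53.7, 57.4 and 46.7 CPM, and Mrpl12 at 79.5, 91.5 and 81.6 CPM against 79.4, 66.1 and 58.5 CPM. None of the 3 overlapped between groups, although Mrpl12 in H89-treated tumor 1 lay just under the lowest NaCl tumor. Their log2 fold changes were -0.28 ± 0.09, -0.29 ± 0.10 and -0.31 ± 0.12 (SE), with adjusted p-values in edgeR of 0.108, 0.123 and 0.173. The median of the 3 genes stood at -0.22, -0.30 and -0.46 in H89-treated tumors 1 to 3 on the log2 scale against the NaCl mean. The number at an unadjusted p under 0.05 was 3 of 3, beside 11.9% of all genes lower at that p. It became 1 with either tumor 2 (NaCl or H89-treated) left out and 2 with either tumor 3 left out. Exons of Mrpl10 and Mrpl12 overlap antisense genes (Gm11574 and Gm16755).

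At the exit tunnel, through which the new chain leaves, 5 of 6 genes were lower, 0 at an unadjusted p under 0.05, with a median of -0.15. The exception, Mrpl22, stood at 22.6, 24.4 and 21.7 CPM in NaCl and 29.1, 25.2 and 21.8 CPM in H89-treated tumors, so that tumor 1 was the highest of the 6 (0.15 ± 0.13 SE). Mrpl47, also at the tunnel and the lowest large-subunit gene per kb (4.36 CPM per kb), stood at 14.5, 14.0 and 16.2 CPM against 16.4, 14.5 and 12.4 CPM (-0.05 ± 0.14 SE). Of 6 genes of the central protuberance, the crown of the subunit that meets the transfer RNAs, 5 were lower, 0 at that p, with a median of -0.12. Mrpl58, a peptidyl-tRNA hydrolase that rescues stalled ribosomes, stood at 29.2, 34.3 and 32.3 CPM against 31.7, 27.6 and 23.5 CPM (-0.21 ± 0.13 SE). Mrpl44, related to the RNase III family, stood at 18.8, 18.3 and 19.9 CPM against 19.9, 17.6 and 16.3 CPM (-0.09 ± 0.11 SE). Both overlapped between groups.

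Only Mrpl1 and Mrpl39 had all H89-treated tumors above all NaCl tumors. Mrpl1, which forms the stalk beside the exit site of transfer RNA, stood at 16.0, 17.5 and 16.1 CPM in NaCl and 19.2, 18.2 and 18.5 CPM in H89-treated tumors. This gave a log2 fold change of 0.17 ± 0.10 (SE) with an adjusted p of 0.324 in edgeR, or of -0.01 with a correction for GC content and length. Mrpl39 stood at 14.7, 15.8 and 17.4 CPM against 17.7, 17.7 and 17.5 CPM (0.14 ± 0.11 SE), with H89-treated tumor 3 just above NaCl tumor 3 (17.46 and 17.43 CPM). Mrpl39 was named after its values were seen, as were the other members with an unadjusted p under 0.05 in edgeR: Mrps10, Mrps14, Mrpl30, Mrpl21 and Mrpl33, all without overlap, at log2 fold changes of -0.22, -0.23, -0.31, -0.26 and -0.25. An exact permutation test of 3 against 3 tumors cannot give a two-sided p under 0.1, the value that all 21 members without overlap reached.

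Many members start beside another gene, an arrangement called a divergent or bidirectional promoter. Of the 78 members, 23 (29.5%) had a protein-coding gene on the other strand starting within 1000 bases upstream or overlapping it by at most 200 bases, as did 11.6% of 12718 protein-coding genes tested. Of the 22 partners that were tested, 8 were lower and 14 higher, with a median log2 fold change of 0.06, beside -0.14 for the 23 members. At an unadjusted p under 0.05 in edgeR, 2 of the 22 partners were lower, Hira beside Mrpl40 and Fau beside Mrpl49. At that p 5 of the 22 were higher (Mitd1, Wdfy1, Zfp189, Helq and Gga3). These partners were named after their values were seen. Over all genes, 11.9% were lower and 13.1% higher at that p. Mrpl30 and Mitd1 start 66 bases apart, with log2 fold changes of -0.31 and 0.56. Mrps27 and Ptcd2, itself a mitochondrial RNA-binding protein, start 81 bases apart, at -0.45 and -0.19. Mrpl49 and Fau, which encodes the cytosolic ribosomal protein S30 fused to a ubiquitin-like peptide, start 59 bases apart, at -0.23 and -0.42. Mrpl46 and Mrps11 overlap head to head on opposite strands and stood at -0.22 and -0.19. Differences between the genes of a pair were not tested.

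**Figure D3:**
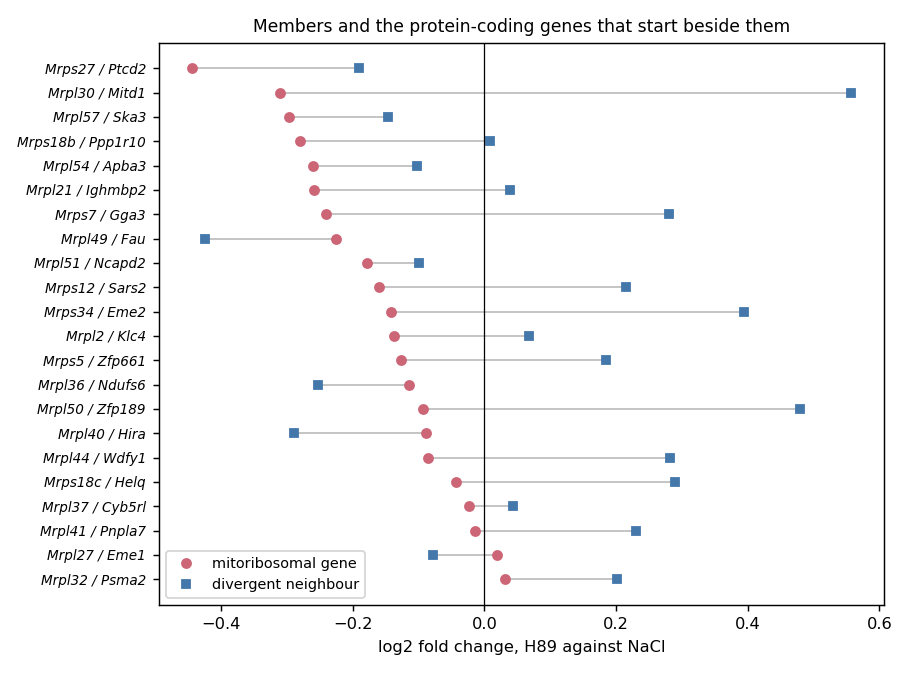
Log2 fold change of H89 against NaCl (x axis) of the 22 members (circles) whose divergent neighbour (squares) was tested, one pair per line. Members lie at or left of 0 in 20 of the 22 pairs, while 14 neighbours lie right of 0.

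Members with the ETS letters in their promoter window had a median log2 fold change of -0.20 (26 genes, 9 of them lower at an unadjusted p under 0.05), and those without -0.14 (43 genes, 6 lower at that p). With the YY1 letters the median was -0.19 (12 genes, 1 lower at that p), and without them -0.15 (57 genes, 14). Over all genes tested, 11.9% were lower at that p. For the other motifs the medians with and without the letters were -0.15 (8 genes) and -0.16 (61 genes) for NRF1, -0.15 (34) and -0.17 (35) for the GC box, -0.14 (27) and -0.16 (42) for CCAAT, -0.11 (5) and -0.16 (64) for the E-box, -0.15 (2) and -0.16 (67) for the cyclic AMP element and -0.15 (5) and -0.16 (64) for TATAAA. These differences were not tested. The genes of the factors themselves were measured with 9 nuclear regulators of mitochondrial genes. Of these, 7 were lower, 2 of the 9 (22.2%) at an unadjusted p under 0.05, beside 11.9% of all genes. None passed the adjusted threshold in edgeR. The 2 became 3 without H89-treated tumor 1 and 1 without any other single tumor. Myc, a transcription factor that drives ribosome production, stood at 200, 204 and 199 CPM in NaCl tumors and 160, 164 and 138 CPM in H89-treated tumors (-0.38 ± 0.09 SE, adjusted p = 0.0722 in edgeR). Nrf1 stood at 45.7, 46.7 and 46.8 CPM against 40.6, 40.6 and 41.0 CPM (-0.19 ± 0.07 SE, adjusted p = 0.168 in edgeR). Neither overlapped between groups. Gabpa (0.00 ± 0.16 SE) and Yy1 (-0.02 ± 0.08 SE) overlapped.

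The other parts of the mitochondrial translation system were counted in the same way. At an unadjusted p under 0.05 in edgeR, 11.9% of all genes were lower and 13.1% higher. With single tumors left out, 7.89% to 13.9% of all genes were lower at that p. Of 5 further ribosomal proteins without an Mrp symbol, 4 were lower, 2 of them at an unadjusted p under 0.05 (4 without H89-treated tumor 1), with a median of -0.21: Chchd1 stood at 31.0, 38.9 and 43.6 CPM in NaCl and 28.4, 25.6 and 25.3 CPM in H89-treated tumors (-0.52 ± 0.13 SE, adjusted p = 0.0827 in edgeR), and Gadd45gip1 at 55.4, 59.6 and 56.9 CPM against 52.1, 43.2 and 37.8 CPM (-0.37 ± 0.12 SE). Ptcd3 lay above the NaCl tumors in all H89-treated tumors (0.16 ± 0.08 SE). Of 24 assembly factors, 13 were lower and 11 higher (median -0.08), 4 (16.7%) lower and 2 higher at an unadjusted p under 0.05. Ddx28, an RNA helicase of the large subunit's assembly, had a log2 fold change of -0.48 and Mettl17, an assembly factor of the small subunit, one of 0.52. The assembly factors at that p numbered 1 lower and 1 higher without NaCl tumor 2, 2 lower and 1 higher without H89-treated tumor 2 or 3, 3 lower and 1 higher without NaCl tumor 1, and 3 lower and 2 higher in the remaining fits with 1 tumor left out.

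Of 13 translation factors, 7 were lower and 6 higher (median -0.05), 2 (15.4%) lower and 4 higher at an unadjusted p under 0.05. Over all genes tested, 11.9% were lower and 13.1% higher at that p. Mrrf, which recycles the ribosome after termination, stood at 34.7, 34.1 and 34.8 CPM in NaCl and 27.2, 26.9 and 23.7 CPM in H89-treated tumors, without overlap (-0.41 ± 0.09 SE, adjusted p = 0.0628 in edgeR). The elongation factor partner Tsfm was at -0.21. The initiation factor Mtif2 (0.30), the recycling factor Gfm2 (0.29), the back-translocase Guf1 (0.31) and the mRNA-binding protein Lrpprc (0.24) had all H89-treated tumors above all NaCl tumors. With single tumors left out, the lower translation factors at that p numbered 4 without H89-treated tumor 1 and 1 otherwise, and the higher ones 0 without NaCl tumor 1 or H89-treated tumor 2, 2 without NaCl tumor 2 and 3 or 4 otherwise. Of 19 mitochondrial tRNA synthetase and amidotransferase genes, 7 were lower and 12 higher (median 0.05). At that p, 1 of the 19 (5.26%) was lower and 2 were higher, Hars2 (0.41) and Lars2 (0.40). With single tumors left out, the lower ones numbered 2 without H89-treated tumor 1 and 0 otherwise, and the higher ones 1 without NaCl tumor 3 or H89-treated tumor 2 and 2 or 3 otherwise. None of 5 mitochondrial transcription genes reached it (2 lower, 3 higher, median 0.04). None of these genes passed the adjusted threshold in edgeR.

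The 2 gene sets most like the mitoribosome were the cytosolic ribosomal proteins and the nuclear genes of the respiratory chain and ATP synthase. Over all genes, 11.9% were lower at an unadjusted p under 0.05, and 1.59% passed the adjusted threshold in either direction in edgeR. Of 79 tested cytosolic ribosomal genes, 74 were lower, 62 (78.5%) at that unadjusted p, and 8 fell past the adjusted threshold. Their median log2 fold change was -0.38. Their median stood at -0.26, -0.47 and -0.43 in H89-treated tumors 1 to 3 against the NaCl mean, so tumor 1 was low too. Of 76 tested respiratory genes, 67 were lower, 22 (28.9%) at an unadjusted p under 0.05 and 1 of them past the adjusted threshold. Their median was -0.16, and it stood at -0.01, -0.22 and -0.31 in H89-treated tumors 1 to 3. This order of tumors was like that of the mitoribosomal genes. Without H89-treated tumor 3, 11 respiratory genes were lower at an unadjusted p under 0.05, beside 9.41% of all genes. The count was 40 without H89-treated tumor 1 (13.9% of all genes), 9 without H89-treated tumor 2 (7.89%) and 12 without NaCl tumor 2 (8.78%). The differences between the sets were not tested. The transcripts of the members were shorter than most, with a median of 1225 bases beside 2666 over all genes tested. Those of the 2 other sets were shorter still, at medians of 771 bases (cytosolic ribosomal) and 711 bases (respiratory).

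**Figure D4:**
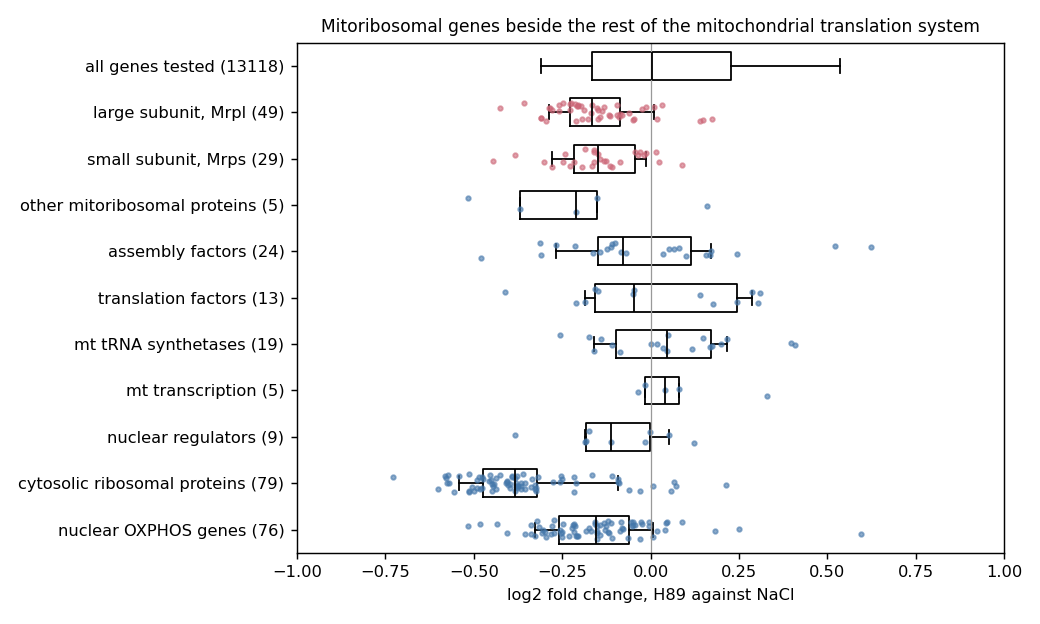
Log2 fold change of H89 against NaCl (x axis) for the mitoribosomal genes (red points), other gene lists (blue points) and all genes tested, with the number of genes in parentheses. Boxes span the quartiles with the median as a line, whiskers reach the 10th and 90th percentile, and 1 respiratory gene at -1.87 lies outside the axis.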

How the data were processed

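The authors sequenced total RNA of each tumor on the BGISEQ-500 platform, and the deposited table holds estimated counts per gene for 6 tumors and 23557 genes. It is called TPM, but tumors summed to between 27067349 and 31958793, and per tumor 58.6% to 61.4% of the nonzero values were whole to within 0.01. The submitters' processing notes name kallisto, DESeq2 and GRCm38, with no versions. Every column of values names a gene, and rows are tumors. The column record lists 369 genes by name, and 23188 further gene columns were read in that way. Groups and replicate numbers came from the sample labels, which name separate tumors. The p-values weigh the difference between groups against the spread between these tumors, which edgeR estimates with information shared across genes.

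Counts were rounded, and genes with a mean of at least 0.5 CPM (13118) were tested with edgeR 4.0.16 (R 4.3.3; TMM, glmQLFit, glmQLFTest, treatment as the only term) with Benjamini-Hochberg adjustment. The script was tested on simulated data. Alternatives used DESeq2 1.42.0, limma 3.58.1 with pseudocounts of 0.5 and 0.1, other scalings and filters, a loess correction of GC content and length (span 0.3), a replicate block, and fits that omitted single tumors. Lengths are medians over GENCODE M21 protein-coding transcripts.

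The members and lists were chosen with earlier results of these data known. Named in each subunit were the 4 smallest p, the 2 largest changes against the median, the highest and lowest CPM per kb, and members with known roles. Genes encoded in mitochondrial DNA and Trmt61b and Mars2 of the lists were not analysed here.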

Additional observations from a re-analysis of the deposited data

How the results depend on the processing

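Of the 78 members, 60 kept the sign of their log2 fold change under 16 alternatives, and all 15 with an unadjusted p under 0.05 were lower in each. Members lower at an unadjusted p under 0.05 numbered 15 and ranged from 5 to 37 with single tumors left out (large subunit 9, from 2 to 22; small subunit 6, from 3 to 15). Over all genes the share lower at that p was 11.9%, and 7.89% to 13.9% with single tumors left out. Scaled to total counts, the members lower at that p were 9 (large subunit 5), with 6.9% of all genes, and 1 was higher. With the GC content and length correction they were 24 (large subunit 17), with 19.1% of all genes, and 1 member passed the adjusted threshold. DESeq2 passed 3. The replicate numbers gave no pairing, since same-numbered tumors correlated at 0.163, 0.061 and -0.025 in their deviations. The replicate block gave 20 members (large subunit 14), with 14.6% of all genes, and 0 at the adjusted threshold. The members' median ranged from -0.24 without H89-treated tumor 1 to -0.08 without H89-treated tumor 3. Signs turned for Mrpl1 with the GC correction (-0.009), Mrpl47 and Mrps18c with total counts (0.014 and 0.022), and Mrps23 and Mrps36 with quantile normalization (-0.093 and -0.016). With single tumors left out, signs also turned for Mrpl47 (-0.153 to 0.047), Mrps18c (-0.136 to 0.035) and Mrps28 (-0.003 to 0.167). They turned for Mrps23 (-0.218 to 0.328) and Mrps36 (-0.061 to 0.097) too. These are sign changes of members named by the rule above. Members not named by it turned as well, such as Mrpl41 (-0.184 to 0.162). The cause was not tested. With 3 tumors a group, the median standard error of a member was 0.114 on the log2 scale, and the level of the median member varied between tumors of a group by 0.120 (SD).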
